A study of Homo sapiens with 2 samples.

Results

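Cholesterol synthesis and its control by the SREBP transcription factors were described through 28 genes, taken by symbol from the 53737 genes of the tables. All 28 had a row, and all 28 reached the level at which a gene was compared. RNA had been sequenced from SK-ES-1, a long-established line of Ewing sarcoma, a tumour of bone and soft tissue, with a genotype labelled wild type. There was 1 library from slow-cycling cells and 1 from non-slow-cycling cells. The labels name no treatment or time, and how the slow-cycling cells were separated is not stated in the labels. With 1 library per group no difference has a replicate check, so every comparison below is between these 2 libraries and carries no p-value.

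Cells make cholesterol from acetyl-CoA through mevalonate, isoprenoid diphosphates, squalene and lanosterol. SREBP proteins are made as membrane-bound precursors. When sterol is scarce, SCAP escorts them from the endoplasmic reticulum to the Golgi, where proteases release the part that enters the nucleus and activates genes of synthesis and uptake. When sterol is plentiful, INSIG proteins hold SCAP and its cargo back. Dividing cells need cholesterol for new membrane and obtain it by synthesis, by uptake of lipoproteins, or by both.

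The enzymes of the pathway as a whole stood at nearly equal levels in both libraries, and the differences lay in a few genes. Higher in the slow-cycling library were the lipoprotein receptor gene VLDLR, at low levels, and MVD, an enzyme of the mevalonate steps. The sterol carrier gene STARD4, also at low levels, had the highest ratio. It reached the level needed for comparison in the slow-cycling library alone, and its ratio lay inside the middle 95% for genes of like level. The retention genes INSIG1 and INSIG2 were also higher by smaller amounts. ACAT2, the first enzyme of the pathway, had the lowest ratio.

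A ratio is the log2(value + 1) of the slow-cycling library minus that of the non-slow-cycling library, and a gene was compared when either library held 1 per-million unit or more. Levels are per-million units and are given for slow-cycling cells first. Adding 1 understates the difference of low genes. At least 1.5-fold higher were 3 of the 28 genes, beside 5.38% of all 13444 genes compared. Among the 3, STARD4 passed the minimum level through the slow-cycling library alone, and MVD lay at the 1.5-fold line itself. With a minimum level of 5 instead, 2 members were at least 1.5-fold higher, beside 2.29% of all genes then compared. None of the 28 was at least 1.5-fold lower, beside 1.41% of all. At least 2-fold higher were 2, STARD4 among them, beside 1.9% of all, and none was 2-fold lower, beside 0.431%. The ratio was above 0 for 20 of the 28, beside 56.2% of all, and below 0 for 8, beside 43.8%. The median ratio of the 28 was 0.09, against 0.03 over all genes compared, and 9 of the 28 lay within 0.1 of 0.

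**Figure D1:**
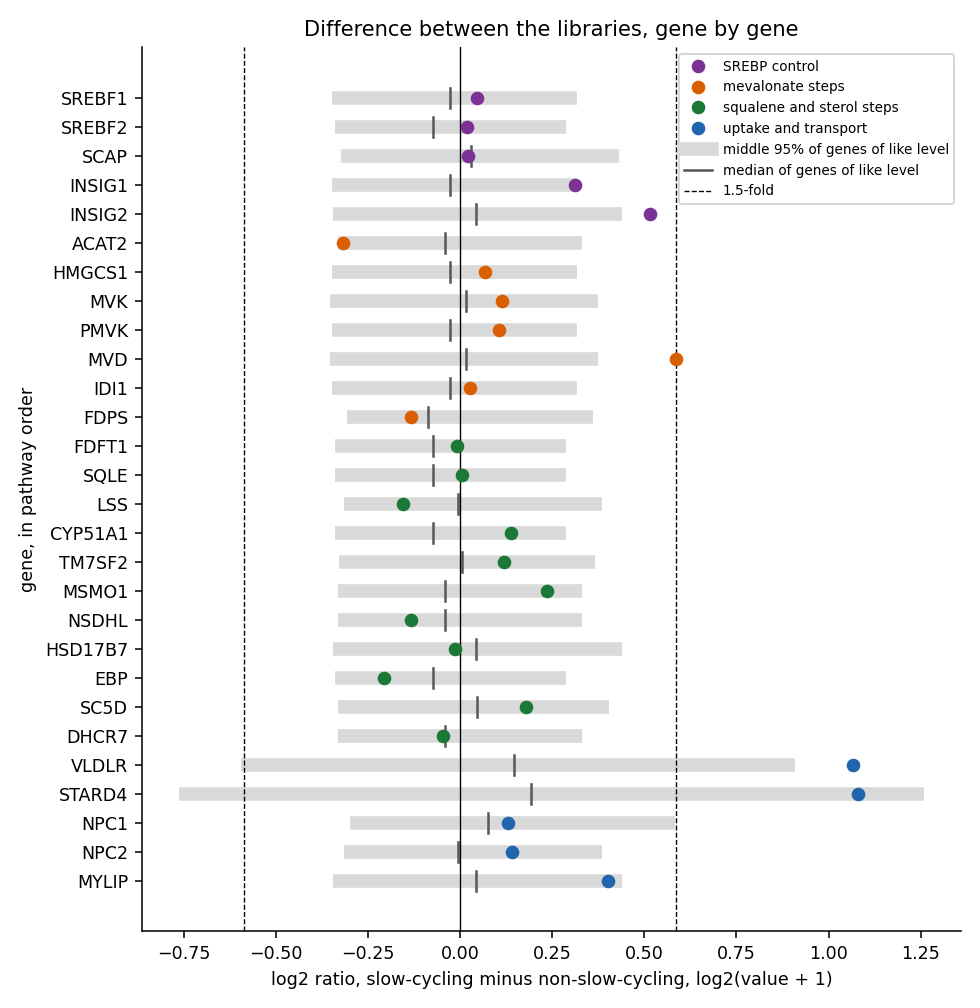
Log2 ratio of each of the 28 genes (points, coloured by role), with genes in pathway order on the vertical axis; grey bars span the middle 95% of the ratios of genes of like level, grey ticks are their medians and dashed lines mark 1.5-fold. INSIG2, MVD and VLDLR lie outside their bars, and STARD4, with the highest ratio of 1.08, lies inside its wider bar.

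The ratios of the whole table moved with level, which bears on how each gene reads. Genes were ranked by their mean log2(value + 1) and divided into 20 bands of 672 or 673 genes. The median ratio was 0.43 in the lowest band and -0.09 in the highest. Of the 28 genes, 3 had a ratio outside the middle 95% of their own band, namely INSIG2, MVD and VLDLR. Most of the 28 were well expressed, 22 of them above the median level of the genes compared.

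**Figure D2:**
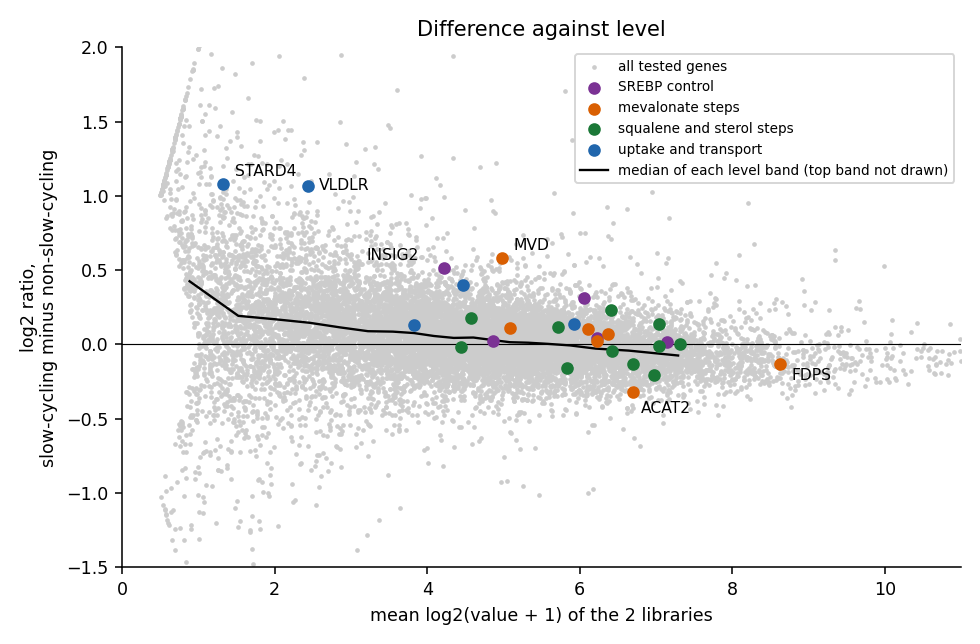
Log2 ratio (vertical axis) against mean log2(value + 1) of the libraries (horizontal axis) for all genes compared (grey) and the 28 genes (coloured by role); the black line joins the medians of the level bands except the highest, and 83 genes lie outside the axes. VLDLR and STARD4 sit at the left, where the grey cloud is wide, and the enzymes sit at the right, where it is narrow.

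Both libraries held the markers of the labelled tumour. All 10 Ewing sarcoma markers examined were present, with a median ratio of -0.03, and CD99, the surface protein used in diagnosis, was at 213 in slow-cycling and 245 in non-slow-cycling cells. All 4 endothelial markers were listed at 0 in both libraries, as were PTPRC, CD3E and HBB among 5 markers of blood cells. The other two were higher in the slow-cycling library, CD68 at 4.36 and 2.28, and CD14 at 0.425 and listed at 0. The 5 blood cell markers summed to 4.78 and 2.28. Of 7 fibroblast markers, 6 could be compared. All 6 had a ratio above 0, beside 56.2% of all genes, with a median of 0.35, and 2 were at least 1.5-fold higher, beside 5.38%. These were COL1A1, at 3.19 and 1.15, and FAP, at 3.67 and 1.74. Their ratios, 0.96 and 0.77, lay inside the middle 95% of their level bands, which ended at 1.26 and 1.22 above. The medians of those bands were 0.19 and 0.17. The ratio of CD68, 0.71, also lay inside the middle 95% of its band. With the level trend removed, the median of the 6 fibroblast markers was 0.31. The 7 summed to 226 and 200.5, most of it from COL1A2 at 144 and 139. The part of other cells in the differences below was not tested, and in bulk RNA fewer cells of a type and less RNA per cell cannot be told apart.

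SREBF2 encodes the SREBP that favours cholesterol genes and hosts a microRNA in an intron, and SREBF1, which favours fatty acid genes, hosts a second one. The mature forms are shown because they share a seed, bases 2 to 8, in capitals, and are known to act on genes of cholesterol export. MIR33A and MIR33B were listed at 0 in both libraries, and a library that selects polyadenylated RNA does not measure mature microRNAs. The sequences come from RefSeq (GRCh38.p14), at chr22:41900949-41900969 on the plus strand and chr17:17813897-17813916 on the minus strand.
hsa-miR-33a-5p: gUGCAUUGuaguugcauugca
hsa-miR-33b-5p: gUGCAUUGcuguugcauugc

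The SREBP genes and their escort were at nearly the same level in both libraries. SREBF2 (chromosome 22, 41833105 to 41907305, GRCh38.p14) was at 141 in slow-cycling and 139 in non-slow-cycling cells, a ratio of 0.02. SREBF1 (chromosome 17, 17811334 to 17836986) was at 74.9 and 72.4, a ratio of 0.05. SCAP, the sterol-sensing escort, was at 28.2 and 27.8, a ratio of 0.02. The level of SREBF2 was 1.88 times that of SREBF1 in slow-cycling and 1.92 times in non-slow-cycling cells. Such levels say nothing of how much SREBP protein was processed.

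Both INSIG genes had higher levels in the slow-cycling library, by more than the rest of the control genes. INSIG1 (chromosome 7, 155297878 to 155310235), itself a well-known target of SREBP, was at 73.4 and 58.9, a ratio of 0.31. A ratio at least as high was found in 2.83% of genes of like level. INSIG2 (chromosome 2, 118088471 to 118110997), whose product also retains SCAP, was at 21.3 and 14.6, a ratio of 0.52, or 1.43-fold. Only 1.19% of genes of like level had a ratio at least as high. Neither gene reached 1.5-fold. INSIG1 was the more abundant of the pair, at 3.44 times INSIG2 in slow-cycling and 4.04 times in non-slow-cycling cells.

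Promoter sequence is shown for SREBF2, INSIG1, MVD, VLDLR and STARD4, the first because it was the only member with a window in the table that held the longer SREBP motif, INSIG1 as a well-known SREBP target, and the others as the 3 genes at 1.5-fold or more. The windows of INSIG2, not shown, held GC boxes but neither SREBP motif nor a CCAAT box. Each run is the 250 bases before the annotated start in the RefSeq table of GRCh38.p14, read 5′ to 3′ on the gene's strand. Capitals mark matches on either strand to the SREBP motif TCACNCCAC, to its shorter core CACNCCA, which lies inside it, and to the CCAAT box, the site of NF-Y, a frequent partner of SREBP. The windows are chr22:41832855-41833104 on the plus strand for SREBF2, chr7:155297628-155297877 on the plus strand for INSIG1, chr16:88663092-88663341 on the minus strand for MVD, chr9:2621537-2621786 on the plus strand for VLDLR and chr5:111512536-111512785 on the minus strand for STARD4.
SREBF2: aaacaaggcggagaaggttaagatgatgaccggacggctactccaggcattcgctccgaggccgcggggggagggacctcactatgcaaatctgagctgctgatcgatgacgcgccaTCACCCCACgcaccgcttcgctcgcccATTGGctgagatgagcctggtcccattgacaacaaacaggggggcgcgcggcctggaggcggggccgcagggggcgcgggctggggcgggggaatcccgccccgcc
INSIG1: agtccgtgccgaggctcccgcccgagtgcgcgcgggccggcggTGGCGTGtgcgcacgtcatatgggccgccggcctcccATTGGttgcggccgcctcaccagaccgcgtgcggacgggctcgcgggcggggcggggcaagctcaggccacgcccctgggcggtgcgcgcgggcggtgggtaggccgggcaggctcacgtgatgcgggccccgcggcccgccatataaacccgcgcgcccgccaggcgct
MVD: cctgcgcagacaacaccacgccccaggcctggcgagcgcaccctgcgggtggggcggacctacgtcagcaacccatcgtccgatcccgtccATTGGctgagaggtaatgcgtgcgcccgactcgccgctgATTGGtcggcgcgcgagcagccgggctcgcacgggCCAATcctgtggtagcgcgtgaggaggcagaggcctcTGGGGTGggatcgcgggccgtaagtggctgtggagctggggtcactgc
VLDLR: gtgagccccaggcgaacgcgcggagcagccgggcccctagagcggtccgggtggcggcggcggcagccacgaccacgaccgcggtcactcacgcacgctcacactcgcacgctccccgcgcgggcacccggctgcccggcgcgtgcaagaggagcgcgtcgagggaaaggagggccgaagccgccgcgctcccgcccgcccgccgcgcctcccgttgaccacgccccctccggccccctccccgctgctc
STARD4: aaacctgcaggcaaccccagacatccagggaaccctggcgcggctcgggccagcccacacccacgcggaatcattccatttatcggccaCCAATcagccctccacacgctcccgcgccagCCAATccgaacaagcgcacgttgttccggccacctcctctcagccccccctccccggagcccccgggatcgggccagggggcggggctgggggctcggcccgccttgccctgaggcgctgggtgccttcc

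The windows of the pathway held these letters more often than those of all genes, as a description with no test. The table had 32 windows for 25 of the 28 genes, and 35116 windows in all, of which 12917 belonged to genes that do not code for protein. TCACNCCAC was in 1 of the 32, that of SREBF2, and in 0.883% of all windows. CACNCCA was in 10 of the 32, or 31.2%, against 14.7% of all, and CCAAT was in 62.5% against 32.0%. The GC box GGGCGG was in 93.8% against 42.6%, and the E-box CACGTG in 12.5% against 6.34%. Over protein-coding genes alone, the background was 14.8% for CACNCCA, 32.7% for CCAAT, 53.7% for the GC box and 7.37% for the E-box. Motifs were searched on both strands, and the windows of 1 gene can overlap. MVD held 3 CCAAT boxes and 1 core motif, STARD4 held 2 CCAAT boxes and no core motif, and VLDLR held neither a core motif nor a CCAAT box. INSIG1 held 1 core motif and 1 CCAAT box.

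The mevalonate steps turn acetyl-CoA into farnesyl diphosphate. Their 7 genes had a median ratio of 0.07 and summed to 769 in slow-cycling and 802 in non-slow-cycling cells. MVD (chromosome 16, 88651940 to 88663091), the decarboxylase that makes isopentenyl diphosphate, was at 37.8 and 24.8, a ratio of 0.59. It lay at the 1.5-fold line itself, and 0.446% of genes of like level had a ratio at least as high. Once the median over all genes was subtracted its ratio was 0.55, below 1.5-fold.

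ACAT2 (chromosome 6, 159762045 to 159779112), the thiolase that joins acetyl-CoA units, had the lowest ratio of the 28. It was at 91.9 in slow-cycling and 115 in non-slow-cycling cells, a ratio of -0.32, and 3.12% of genes of like level were at least as low. ACAT2 overlaps TCP1, a chaperonin gene at 519 and 569 with a ratio of -0.13, and SOD2, a mitochondrial dismutase gene at 30.9 and 29.7 with a ratio of 0.06. Whether reads were counted by strand is not stated in the labels. FDPS, farnesyl diphosphate synthase, was the most abundant of the 28 in both libraries, at 377 and 413, a ratio of -0.13.

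The other 4 mevalonate genes differed little. HMGCS1, HMG-CoA synthase, was at 83.7 and 79.9. MVK, mevalonate kinase, was at 34.3 and 31.7, and PMVK, the next kinase, was at 70.7 and 65.6. IDI1, the isomerase of isopentenyl diphosphate, was at 74.2 and 72.9. Their ratios ran from 0.03 for IDI1 to 0.11 for MVK and PMVK. MVD stood at 0.784 times the level of MVK in non-slow-cycling and 1.10 times in slow-cycling cells.

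**Figure D3:**
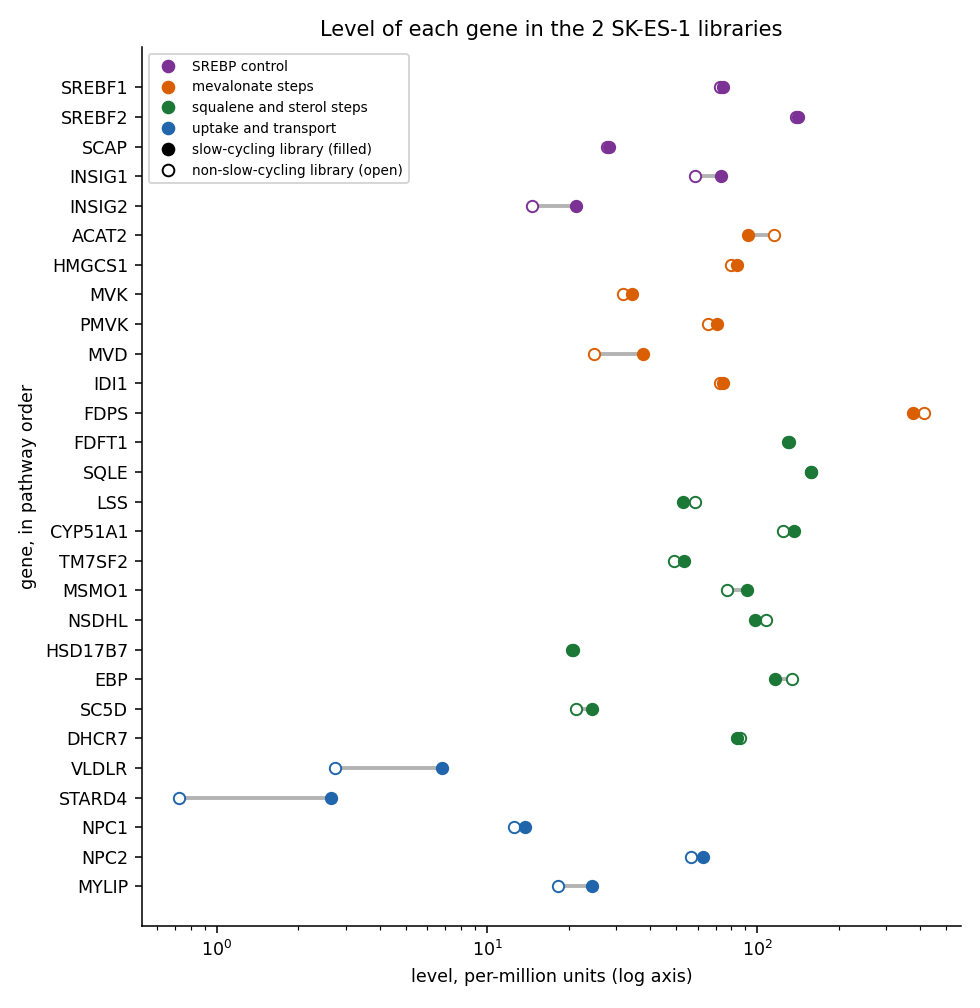
Level of each of the 28 genes in per-million units (horizontal log axis) in the slow-cycling library (filled points) and the non-slow-cycling library (open points), with genes in pathway order on the vertical axis and coloured by role. FDPS stands at the right at 377 and 413, STARD4 at the left at 2.65 and 0.725, and most pairs of points overlap or nearly do.

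The 11 genes that carry farnesyl diphosphate to cholesterol showed no common direction. Their median ratio was -0.01, with 5 above 0 and 6 below, beside 56.2% and 43.8% of all genes. Their levels summed to 965 and 969. FDFT1, squalene synthase and the first committed step to sterols, was at 130 in both libraries at this rounding, a ratio of -0.01. SQLE, squalene epoxidase and a slow step of the pathway, was at 158 in both, a ratio below 0.01. None of the 11 reached a ratio of 0.32 in either direction, beside 13.5% of all genes compared that did so upward and 4.99% downward. Those shares include low genes, whose ratios spread more widely. In the level bands of the 11, the middle 95% ended between 0.29 and 0.44 above and between -0.34 and -0.31 below. Few genes of like level thus reached 0.32, and its absence among the 11 does not set them apart.

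Within these 11 genes, the ratios ran from -0.21 to 0.23. MSMO1, a methyl sterol oxidase, had the highest, at 91.2 in slow-cycling and 77.3 in non-slow-cycling cells. SC5D, a desaturase, was at 24.3 and 21.4, CYP51A1, the lanosterol demethylase, at 137 and 124, and TM7SF2, a sterol reductase, at 53.5 and 49.2. These 4 and SQLE had ratios above 0. EBP, a sterol isomerase, had the lowest, at 116 and 135. LSS, which closes the sterol rings, was at 52.8 and 58.9, a ratio of -0.16, and NSDHL, a dehydrogenase, at 97.7 and 107, a ratio of -0.13. DHCR7, the last reductase of one branch, was at 83.8 and 86.5, and HSD17B7, a keto-reductase, was at 20.5 and 20.8. Genes that act next to each other on the same methyl groups thus had opposite signs, MSMO1 above 0 and NSDHL below it.

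All 5 genes of uptake and transport had a ratio above 0, beside 56.2% of all genes compared. Their median was 0.40, which counts STARD4, and 0.36 with the level trend removed. Without the 4 that overlap another gene with a value, the 1 left was NPC2 at 0.14, below the median of 0.17 for the control genes treated alike. VLDLR (chromosome 9, 2621787 to 2660056), a receptor of lipoproteins and reelin, was at 6.80 in slow-cycling and 2.72 in non-slow-cycling cells, a ratio of 1.07. The levels themselves stood 2.5-fold apart, and 2.08% of genes of like level had a ratio at least as high. VLDLR also stands on lists of stress-response genes, and any link of that to its level here was not tested. STARD4 (chromosome 5, 111496033 to 111512535), a cytosolic carrier that moves sterol between membranes, was at 2.65 and 0.725, a ratio of 1.08 and the highest of the 28. It passed the minimum level through the slow-cycling library alone, so its direction was favoured by the filter, and 3.87% of genes of like level had a ratio at least as high. STARD4 was the least abundant of the 28 in both libraries, and STARD4-AS1, which overlaps it, was more abundant at 6.97 and 6.48, a ratio of 0.09.

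The other transport genes were nearer to 0. MYLIP, a ubiquitin ligase that sends lipoprotein receptors including the VLDLR protein to degradation, was at 24.5 in slow-cycling and 18.3 in non-slow-cycling cells, a ratio of 0.40. A ratio at least as high was found in 3.87% of genes of like level, the same share as for STARD4. MYLIP is a known target of the oxysterol receptors LXR and acts against uptake, and it was higher in the same library as VLDLR. NPC1, which exports cholesterol from lysosomes, was at 13.8 and 12.5, a ratio of 0.13, and NPC2, which hands cholesterol to it, was at 62.7 and 56.8, a ratio of 0.14. The level of NPC2 was 4.54 times that of NPC1 in both libraries. Without STARD4, which falls below a minimum level of 5, the median ratio of the group was 0.27.

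Other genes of sterol and lipid biology were read from lists, with 1.5-fold as the line. Over all genes compared, 56.2% lay above 0. Of 17 genes of SREBP processing and degradation, 10 had a ratio above 0, near the share over all genes, with a median of 0.06. None of the 17 reached 1.5-fold, beside 5.38% of all genes higher and 1.41% lower. MBTPS1, the Golgi protease that makes the first cut in SREBP, had the highest ratio, at 52.7 in slow-cycling and 38.6 in non-slow-cycling cells, 0.44. SEC24B, a coat protein of the vesicles that carry cargo to the Golgi, was at 44.2 and 34.1. FBXW7, part of the ligase that degrades nuclear SREBP, was at 8.67 and 7.22, and MARCH6, a ligase that acts on squalene epoxidase, at 58.2 and 49.7. The levels of the protease and of both ligase genes were thus higher in the same library.

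Fatty acid synthesis, the other arm of SREBP, differed little. Of 25 genes, 23 could be compared, and 16 had a ratio below 0, beside 43.8% of all. None reached 1.5-fold, beside 5.38% of all genes higher and 1.41% lower. Of the 23, 15 lay within 0.1 of 0. The median of the 23 was -0.01, or -0.03 with the level trend removed. Their levels summed to 2564 and 2809. TMEM97, a sterol-responsive membrane protein, had the lowest ratio, -0.29, at 83.5 and 102. FABP5, a fatty acid carrier, was at 310 and 371, the desaturase FADS2 at 424 and 504, and fatty acid synthase FASN at 221 and 254. Of 16 genes of the isoprenoid branches, 10 had a ratio below 0, beside 43.8% of all. These branches draw on the mevalonate steps for prenyl groups, dolichol and ubiquinone. None of the 16 reached 1.5-fold, beside the same shares of 5.38% and 1.41%, and their median was -0.09. PDSS1, of ubiquinone synthesis, was at 41.6 and 49.6, NUS1 at 46.2 and 54.4 and DHDDS at 24.5 and 27.6, the latter pair forming the dolichol enzyme. TRIT1, a tRNA prenyl transferase, was at 63.5 and 52.7.

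Sterol trafficking, storage and export genes had a median ratio of 0.10 over 22 compared of 26, with 15 above 0, beside 56.2% of all. None was at 1.5-fold, beside 5.38% of all genes higher and 1.41% lower. LRP1, a large endocytic receptor, was at 69.3 in slow-cycling and 52.2 in non-slow-cycling cells, and LIPA, the lysosomal lipase that frees cholesterol from its esters, at 30.6 and 24.0. OSBPL5, a sterol transfer protein, was at 4.86 and 3.39. SCARB1, the receptor of high-density lipoprotein, was lower, at 136 and 164, a ratio of -0.27. Uptake genes were therefore not higher throughout. Of 12 genes of oxysterols and LXR, 8 could be compared and 6 had a ratio above 0, beside 56.2% of all, with a median of 0.09. CYP7B1, an oxysterol hydroxylase, was the only gene of these lists at 1.5-fold or more, beside 5.38% of all genes higher. It was at 6.20 and 3.59, a ratio of 0.65. That ratio lay inside the middle 95% of its level band, which ended at 0.91 above. NR1H3, an LXR gene, was at 1.0 and 0.723, EBPL, a relative of EBP, at 63.4 and 71.2, and LPCAT3, an LXR target, at 69.9 and 62.6.

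**Figure D4:**
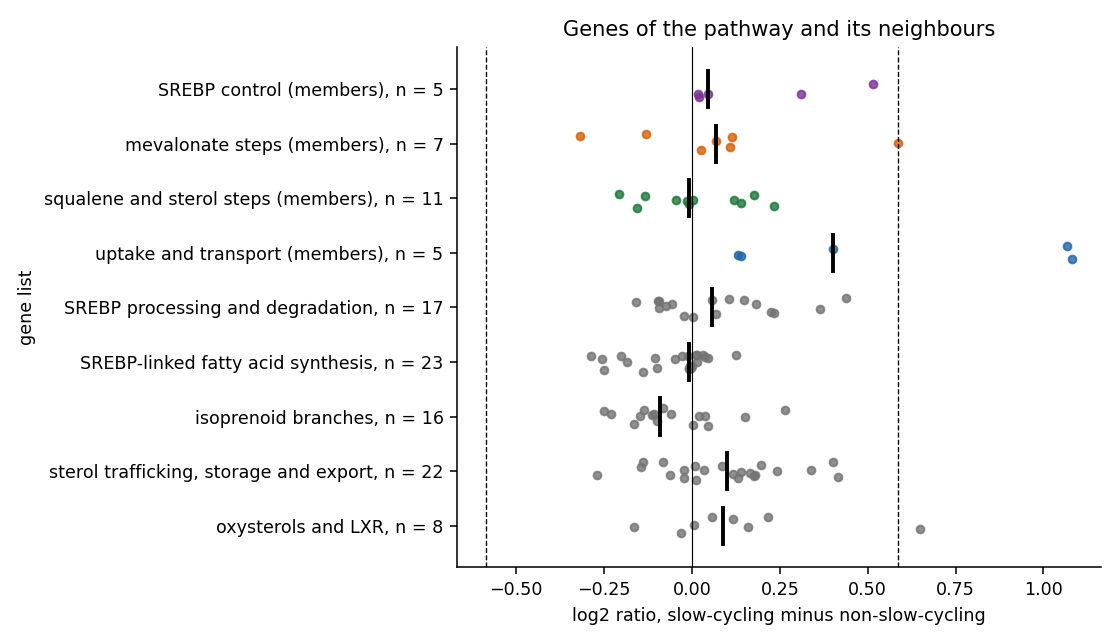
Log2 ratio (horizontal axis) of each gene compared in the 4 role groups of the 28 genes (coloured) and in 5 lists of related genes (grey), 1 list per row with the number of genes; black bars are medians and dashed lines mark 1.5-fold. Only MVD, VLDLR, STARD4 and CYP7B1 reach the right-hand line, and no gene reaches the left-hand one.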

How the data were processed

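For each library 1 table paired symbols and Entrez IDs with values that are called normalized per the file headers. Libraries were made with a stranded kit for polyadenylated RNA, per the labels' protocols, and hg38 is the build named per the submitters' processing notes. The headers write LRC and non-LRC, unexplained there, so each table took its group from the sample it belongs to. The aligner, counter and annotation were not stated. The deposited values were read as log2(per-million value + 1) from the numbers: back-transformed, they summed to 983638 and 984120. Low values did not fall on a common step (at most 5 genes shared 1 value above 0), so they were taken to be per length. The scale was not stated, and levels between genes rest on that reading. Read depth is unknown, and no interval was computed. A level listed at 0 can be a failed estimate.

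Lines of 1 gene ID with locus suffixes were summed. Coordinates, gene classes and sequences came from RefSeq tables of GRCh38.p14, in which 51252 gene IDs and all 28 members matched. Values were back-transformed and compared with Python 3.11.15 and pandas 2.3.3, with no further scaling. The fold count was also run on simulated ratios with a spread taken from these same libraries. That run required only that large seeded changes be called, so it does not check the 1.5-fold line. Every member is named, with up to 4 genes of largest absolute ratio per list and the genes with a value that overlap a member. The markers CD14, PTPRC, CD3E, HBB and COL1A2, outside that rule, were named after their values were seen. MIR33A and MIR33B were named as genes hosted by a member. Members and lists were chosen with earlier results of these data known. Alternatives changed the scaling, the level trend, the pseudocount (0.1), the minimum level (none or 5), the reference genes, the fold and the members kept. Some items of the pathway and of these lists are not reported here.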

Additional observations from a re-analysis of the deposited data

How the results depend on the processing

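No paired analysis was possible because each group had 1 library. A value was taken as unmoved within 0.1 on the log2 scale, or within 1.5 times for a count. STARD4 and VLDLR stayed at least 1.5-fold higher in every alternative that held them, at ratios of 0.89 to 1.74 and 0.92 to 1.29. Those alternatives shift the same 2 libraries by small amounts or change the pseudocount or minimum level, so they could hardly have altered that call. STARD4 also passed the minimum level through the slow-cycling library alone. How stable either difference is was therefore not tested. MVD fell just short of 1.5-fold after subtraction of the overall median (0.55), upper quartiles made equal (0.58), the level trend removed (0.57) and the protein-coding median set to 0 (0.56). With the line at a ratio of 0.32, 5 members were higher, beside 13.5% of all genes, and none lower, beside 4.99%. With the overall median subtracted, 16 of the 28 members had a ratio above 0, where all genes split evenly by construction. Removal of the 8 members that overlap another gene with a value, STARD4 and VLDLR among them, left 20. Of these 20, 1 was at least 1.5-fold higher, beside 5.38% of all genes, and 13 had a ratio above 0, beside 56.2%. The medians were then 0.17 for the control genes and 0.14 for the transport genes. For VLDLR the overlapping gene was VLDLR-AS1, at 0.0704 in slow-cycling cells and 0 in the others. The transport median was 0.27 at a minimum level of 5, where STARD4 could not be compared. Removal of the level trend turned the median of the sterol genes to 0.067, that of neighbouring genes to -0.018 and that of the Ewing sarcoma markers to 0.016. The blood cell marker median, which rests on CD68 alone, was 0.71, against 0.54 with the trend removed and 0.90 with a pseudocount of 0.1. FDFT1, IDI1, SCAP, SQLE and SREBF2, all within 0.1 of 0, changed sign in some alternative. The unknown depth limits the low genes most.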

Other observations

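Genes that overlap or neighbour the 28 were examined because reads can be shared between overlapping genes. A RefSeq gene overlapped 17 of the 28, and for 8 of these an overlapping gene had a value above 0 in a library. IDI2-AS1, which overlaps IDI1, was at 10.7 in slow-cycling and 8.06 in non-slow-cycling cells, in per-million units, a log2 ratio of 0.37 against 0.03 for IDI1. WDR37, which also overlaps IDI1, had a log2 ratio of -0.03, and RAI1, which overlaps SREBF1, was at 24.9 and 25.2. IDI2, the neighbouring isomerase gene, was at 7.25 and 6.16. MMAB, a cobalamin enzyme gene that overlaps MVK, was at 34.6 and 34.7. RMC1, which overlaps NPC1, was at 22.7 and 26.0, a log2 ratio of -0.19 where NPC1 had 0.13. The microRNA gene MIR4639, within MYLIP, was at 0.139 and 3.39, opposite in direction to MYLIP itself, and the level of so short a gene in a library of polyadenylated RNA is uncertain. Pseudogenes named after a member exist for 4 of the 28, IDI1, FDPS, CYP51A1 and HSD17B7, and those with a row were listed at 0 in both libraries. Of 13 neighbouring or hosted genes listed, 7 could be compared. Of these, 4 were above 0, beside 56.2% of all genes, and the median log2 ratio was 0.08.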
